A study of Homo sapiens with 24 samples.

Results

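The genes described here are the WNT ligands, their receptors and antagonists, and the feedback and nuclear factors of the same pathway. They were taken by gene symbol from the platform's annotation: WNT, FZD, SFRP or DKK with a number, together with named LGR, LRP, ROR, RYK, RNF43, ZNRF3, AXIN, AMER1, NKD1, RSPO, LEF1, TCF and CTNNB1 genes. With 1 probe set per gene, the one with the highest mean over the 24 arrays, this gave 56 of the 19775 genes measured, read by 117 of 54675 probe sets. There were 17 ligands, 9 Frizzled receptors, 8 co-receptors and other receptors, 8 secreted antagonists, 10 feedback and R-spondin genes and 4 nuclear factors. WNT3 and FZD8 were not taken, because their 6 probe sets also name a second gene, and WNT3A and TCF7 had no single-gene probe set in the annotation used. All 56 entered the tests. A mean log2 value of 5 or more was reached by 37 of them (66.1%, against 64.7% of all genes), and 19 lay under it, where the signal was dim.

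In the canonical WNT pathway a secreted lipid-modified ligand binds a Frizzled receptor and the co-receptor LRP5 or LRP6 on the cell surface. The complex that marks β-catenin for destruction is then held back, and β-catenin, encoded by CTNNB1, enters the nucleus and acts with LEF1 and TCF factors. Secreted SFRP proteins bind the ligands and DKK proteins block LRP5 and LRP6, whereas R-spondins act through LGR receptors to keep Frizzled receptors on the surface by restraining RNF43 and ZNRF3. Receptors such as ROR2 carry signals that do not need β-catenin. HEK293 is a human embryonic kidney cell line in which the pathway can be switched on by added ligand.

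The 8 conditions were HEK293 cells that received no DNA (untransfected), the pCDNA3 plasmid alone (empty vector), plasmid for Flag-tagged wild type SIRT6, or plasmid for Flag-tagged H133W, a SIRT6 mutant without deacetylase activity, each without and with TNFα at 10 ng/ml, and 3 biological replicates of each were hybridised. Transfection lasted 24 h before stimulation, and cells without TNFα received its carrier solution. TNFα was given for 4 h according to the methods and for 1 h according to the deposited description. Transfection was transient and reached only part of the cells, so that the arrays of plasmid-treated wells each hold a mixture of transfected and other cells.

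Of the HEK293 markers, NEFL, CDH2, VIM, KRT18 and KRT8 were high on every array (9.32 to 12.51), while LHX1, NEFM and PAX2 were low (4.05 to 5.83). The leukocyte markers CD3E, PTPRC and CD14 stayed between 1.83 and 4.70. Among fibroblast markers LUM, DCN, THY1 and PDGFRA lay between 2.08 and 5.20, while COL1A1 and COL3A1 lay between 7.00 and 8.02. The array of H133W+TNFa replicate 3 stood apart: its β-actin 3′ control exceeded the 5′ control by 3.03 on the log2 scale, as happens with RNA of lower quality, against 2.05 for empty vector replicate 2 and 1.33 to 1.79 on the others. The weights limma estimated were lowest for these 2 arrays and for untransfected replicate 2 (0.0844, 0.383 and 0.311). Calls that rest on them are given with and without them.

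The question of the TNFα comparisons is which WNT genes a short inflammatory stimulus changed, and whether the kind of transfection altered that. TNFα lowered a small set of genes spread over the roles of the pathway. WNT16, a ligand, DKK1, a secreted inhibitor of LRP5 and LRP6, FZD4, a Frizzled receptor, and ROR2, a receptor tyrosine kinase for WNT5A, fell when the response was averaged over the 4 kinds of cells, by 1.25, 1.03, 0.66 and 0.73 on the log2 scale. They were the 4 of 56 members called, that is, with a fold change over 1.5 at a Benjamini-Hochberg adjusted p under 0.05 in limma. None of the members was called higher in that average (0 of 56), and over all genes 1.22% were called, 0.425% downwards. In RNA from whole wells, fewer cells expressing a gene and less RNA per cell cannot be told apart.

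The promoters of these 4 genes are shown because they moved together. Each line gives the 250 bases before the RefSeq start on GRCh38.p14, 5′ to 3′ along the gene, with matches to the motifs searched in capitals.
WNT16 (chr7:121328750-121328999, plus strand): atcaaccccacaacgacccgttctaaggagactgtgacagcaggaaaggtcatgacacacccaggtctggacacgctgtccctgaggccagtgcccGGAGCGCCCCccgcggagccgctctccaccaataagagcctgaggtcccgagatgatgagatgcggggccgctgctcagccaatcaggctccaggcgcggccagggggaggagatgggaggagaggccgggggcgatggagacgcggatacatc
DKK1 (chr10:52314031-52314280, plus strand): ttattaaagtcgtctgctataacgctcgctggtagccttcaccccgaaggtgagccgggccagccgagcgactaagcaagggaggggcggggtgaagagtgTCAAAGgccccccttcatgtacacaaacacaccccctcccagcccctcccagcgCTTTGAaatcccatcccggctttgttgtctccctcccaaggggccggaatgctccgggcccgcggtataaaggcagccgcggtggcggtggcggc
FZD4 (chr11:86955396-86955645, minus strand): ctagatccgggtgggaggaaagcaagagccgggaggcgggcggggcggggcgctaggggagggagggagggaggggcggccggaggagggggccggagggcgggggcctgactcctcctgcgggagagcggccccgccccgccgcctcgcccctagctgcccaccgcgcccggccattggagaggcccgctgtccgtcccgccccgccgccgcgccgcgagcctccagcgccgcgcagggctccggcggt
ROR2 (chr9:91950229-91950478, minus strand): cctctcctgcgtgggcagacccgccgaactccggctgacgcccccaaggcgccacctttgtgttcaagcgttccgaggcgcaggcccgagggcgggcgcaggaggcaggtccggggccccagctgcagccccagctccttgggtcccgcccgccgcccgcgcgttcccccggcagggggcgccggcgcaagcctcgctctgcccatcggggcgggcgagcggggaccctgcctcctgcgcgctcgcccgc

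The motifs searched on both strands were the NFκB κB consensus, the TCF/LEF core CTTTGA and the AP-1 site TGANTCA. The capitals mark a κB match from 154 to 145 bases before the WNT16 start and TCF/LEF matches from 149 to 144 and from 95 to 90 bases before the DKK1 start, and these windows of FZD4 and ROR2 held no match. The κB consensus was found in 9.96% of all 35116 promoters and in 11 of the 46 promoters matched to 38 members (23.9%), which were also richer in G and C (median 66.6% against 58.0%). The TCF/LEF core was found in 11.2% of all promoters and, among members, in that of DKK1. The AP-1 site was found in 6.57% of all promoters and, among members, in that of RNF43. These are matches of letters, and no binding was measured.

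WNT16 read 7.19, 6.87 and 6.95 in untransfected cells and 5.78, 5.99 and 5.90 with TNFα. In empty vector cells it read 7.06, 6.80 and 6.57 without and 5.88, 5.76 and 5.58 with TNFα. The arrays of either pair did not overlap. With SIRT6 the values were 7.24, 7.42 and 7.47 without and 6.04, 5.94 and 5.99 with TNFα, and with H133W they were 7.14, 6.99 and 7.00 without and 5.84, 5.69 and 5.31 with TNFα. Every array with TNFα thus lay below every array without it, at 5.31 to 6.04 against 6.57 to 7.47. The falls were 1.12 ± 0.13 (SE) in untransfected, 1.07 ± 0.13 in empty vector, 1.38 ± 0.13 in SIRT6 and 1.42 ± 0.13 in H133W cells, from 2.10- to 2.68-fold, and each of the 4 passed (adjusted p = 1.92e-05, 3.64e-05, 1.03e-06 and 6.64e-07). WNT16 was called in each of the 4 kinds of cells. Its probe set may also bind related transcripts, and the other WNT16 probe set fell by only 0.30 on average (adjusted p = 0.000441), with 0.08 in H133W cells (adjusted p = 0.737).

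DKK1 was dim, with a mean of 4.28 over the 24 arrays. Its values were 4.65, 5.00 and 5.34 in untransfected cells and 4.39, 4.07 and 3.43 with TNFα. In empty vector cells they were 4.97, 4.89 and 4.71 without and 3.99, 3.51 and 3.57 with TNFα. With SIRT6 they were 4.69, 4.84 and 4.75 without and 4.13, 3.57 and 4.20 with TNFα. The arrays with TNFα lay lower in each of these kinds of cells, with no overlap. In H133W cells DKK1 read 4.87, 4.44 and 4.39 without and 3.81, 3.44 and 3.06 with TNFα, again apart. It fell by 1.03 ± 0.235 (SE) in untransfected, 1.16 ± 0.235 in empty vector and 1.13 ± 0.235 with H133W (adjusted p = 0.0233, 0.00837 and 0.00933), and the change of -0.79 ± 0.235 with SIRT6 did not pass (adjusted p = 0.107). Each of the 3 calls was lost without 1 of several single arrays, at an adjusted p from 0.0502 to 0.171, while the average over the 4 kinds of cells passed without any single array.

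**Figure D1:**
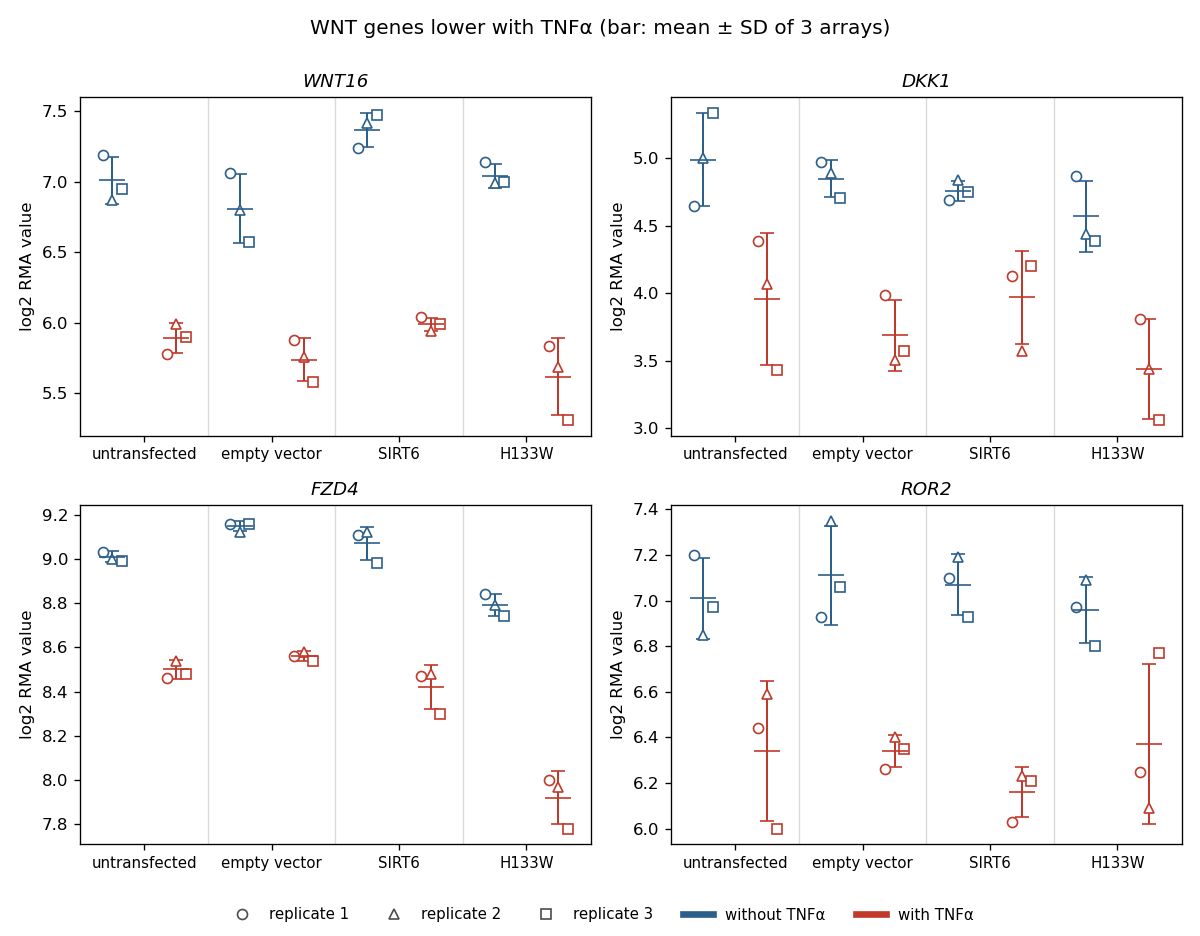
Log2 RMA values of WNT16, DKK1, FZD4 and ROR2 on each array, by kind of cell, without (blue) and with (red) TNFα. Points are the replicates and bars the mean ± SD of 3 arrays, and the 3 red points lie below the 3 blue points for each gene in each kind of cell.

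FZD4, which binds WNT ligands and norrin, varied little between replicates. It read 9.16, 9.12 and 9.16 in empty vector cells and 8.56, 8.58 and 8.54 with TNFα, and 9.03, 9.0 and 8.99 in untransfected cells and 8.46, 8.54 and 8.48 with TNFα. With SIRT6 it read 9.11, 9.12 and 8.98 without and 8.47, 8.48 and 8.30 with TNFα. The lowest values were those of H133W cells, 8.84, 8.79 and 8.74 without and 8.0, 7.97 and 7.78 with TNFα. Over all arrays FZD4 spanned 7.78 to 8.58 with TNFα and 8.74 to 9.16 without, which do not overlap. It fell by 0.59 ± 0.0656 (SE) in empty vector, 0.65 ± 0.0656 in SIRT6 and 0.87 ± 0.0656 with H133W (adjusted p = 1.1e-05, 2.53e-06 and 3.87e-08). The change of -0.51 in untransfected cells passed the test (adjusted p = 6.51e-05) but was 1.42-fold, under the fold threshold. The empty vector value lay at that threshold, 1.5-fold, and its call was lost without any of 4 of its 6 arrays, at a change of -0.58. The other FZD4 probe set averaged -0.56 (adjusted p = 0.000263).

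ROR2 read 6.93, 7.35 and 7.06 in empty vector cells and 6.26, 6.40 and 6.35 with TNFα. With SIRT6 it read 7.10, 7.19 and 6.93 without and 6.03, 6.23 and 6.21 with TNFα. In untransfected cells it read 7.20, 6.85 and 6.97 without and 6.44, 6.59 and 6.00 with TNFα. These pairs of conditions did not overlap, and the fall was 0.78 ± 0.161 (SE), 0.92 ± 0.161 and 0.66 ± 0.161 (adjusted p = 0.0102, 0.00221 and 0.0396). In H133W cells it read 6.97, 7.09 and 6.80 without and 6.25, 6.09 and 6.77 with TNFα, and the change of -0.58 did not pass (adjusted p = 0.0528). The value of 6.77 came from H133W+TNFa replicate 3. The untransfected call was lost without any of 4 of its 6 arrays (adjusted p from 0.0756 to 0.245), and the empty vector call without empty vector replicate 2 or empty vector+TNFa replicate 1 (adjusted p = 0.0863 and 0.0528).

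In empty vector cells 4 of 56 members were called lower and 0 higher (1.25% of all genes called, 0.47% downwards): WNT16, DKK1, FZD4 and ROR2. In untransfected cells 3 were called lower and 0 higher (1.18%, 0.334% downwards): WNT16, DKK1 and ROR2. In SIRT6 cells 3 were called lower and 0 higher (1.28%, 0.506% downwards): WNT16, FZD4 and ROR2. In H133W cells 6 were called lower and 0 higher (1.42%, 0.642% downwards). They were WNT16, DKK1, FZD4, and 3 members called in no other kind of cell, FZD2, FZD5 and LGR5. Without adjustment of p and without the fold threshold, 15, 14, 21 and 19 members passed 0.05 in limma in empty vector, untransfected, SIRT6 and H133W cells, lower and higher ones counted together, against 13.4%, 10.1%, 12.5% and 18.3% of all genes. Without the 3 arrays of low weight the counts of called members, all lower, were 5, 3, 3 and 3, against 1.26%, 1.4%, 1.41% and 1.27% of all genes. In that fit RSPO2 was added in empty vector cells, and in H133W cells ROR2 was added while DKK1, FZD2, FZD5 and LGR5 were lost.

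The 3 further members of H133W cells, FZD2 and FZD5, both Frizzled receptors, and LGR5, an R-spondin receptor and a stem cell marker of the gut, depended on 1 array. FZD2 read 6.55, 6.45 and 6.53 without and 5.98, 5.95 and 5.12 with TNFα. LGR5 read 8.14, 8.08 and 8.09 without and 7.73, 7.61 and 6.65 with TNFα. In both, the lowest value was that of H133W+TNFa replicate 3, and the other arrays with TNFα lay closer to the cells without it. FZD5 read 9.69, 9.73 and 9.68 without and 9.19, 9.23 and 8.83 with TNFα, in the same order. They fell by 0.82 ± 0.159 (SE), 0.77 ± 0.17 and 0.61 ± 0.0872 (adjusted p = 0.00491, 0.0144 and 0.000231). Without that array the changes were -0.54, -0.43 and -0.49 (adjusted p = 0.00669, 0.00349 and 0.00045), all under the fold threshold. The LGR5 call was also lost without H133W replicate 1 or replicate 2 (adjusted p = 0.0627 and 0.0503). In the 3 other kinds of cells the changes ran from -0.29 to -0.42 for FZD2, -0.42 to -0.52 for LGR5 and -0.24 to -0.39 for FZD5, and of these only FZD5 with SIRT6 passed the test (adjusted p = 0.0178), below the fold threshold. The other FZD5 probe set, which was dim, changed by 0.14 in H133W cells, in the opposite direction (adjusted p = 0.686).

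**Figure D2:**
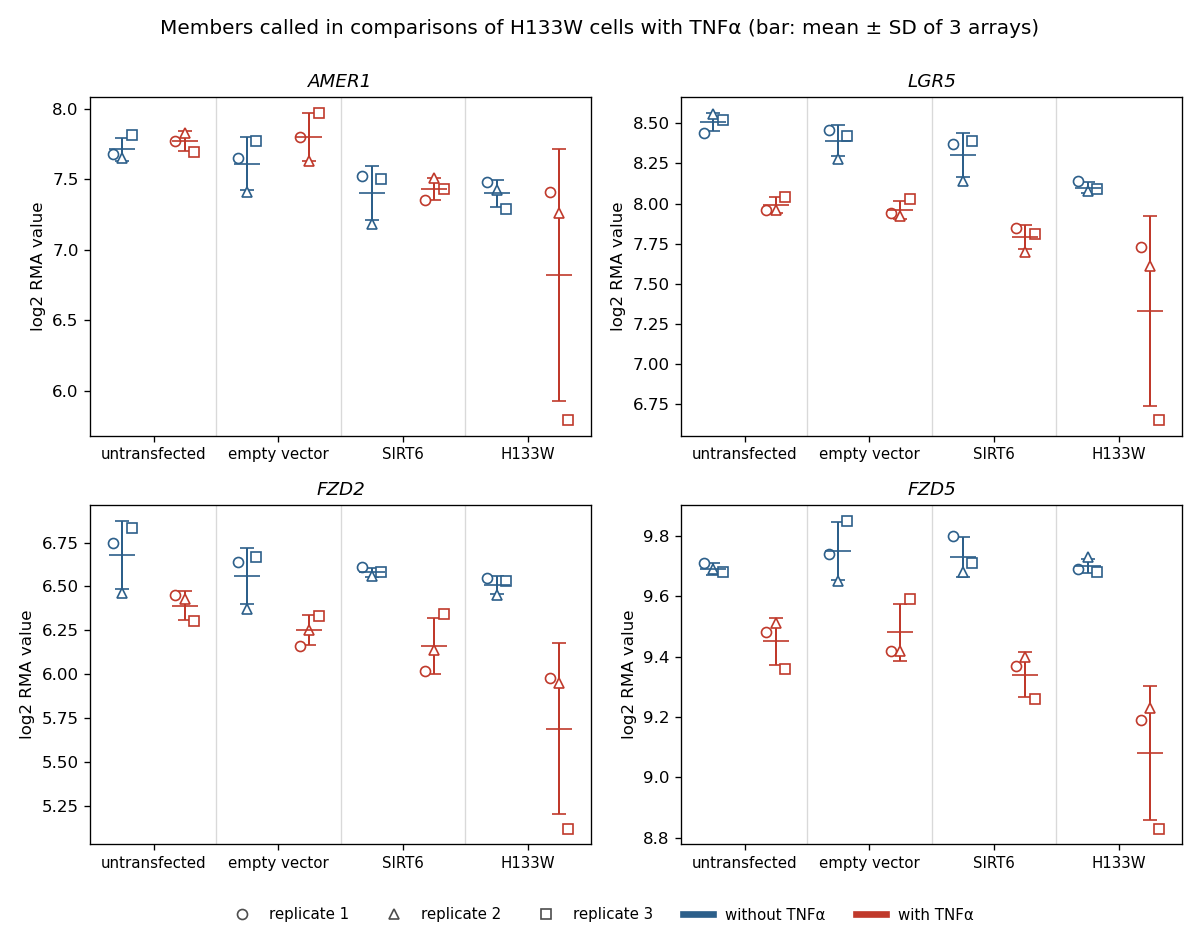
Log2 RMA values of AMER1, LGR5, FZD2 and FZD5 on each array, by kind of cell, without (blue) and with (red) TNFα, with the mean ± SD of 3 arrays. The square of H133W+TNFa replicate 3 is the lowest point of each panel, at 5.79, 6.65, 5.12 and 8.83.

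Most of the other changes with TNFα were small. Averaged over the kinds of cells, 42 of 56 members (75%) had a negative change, against 59.9% of all genes, and the median change was -0.076 against -0.02. With no fold threshold 20 members passed an adjusted p of 0.05 (35.7%, against 14.1% of all genes), of which 17 were lower (9.24% of all genes) and 3 higher (4.87%). Without the 3 arrays of low weight 29 passed (51.8%, against 25.3% of all genes in the same fit), 24 lower (17.9% of all genes) and 5 higher (7.39%). Negative changes in all 4 kinds of cells were found for 22 members (39.3%), against 21.3% of all genes, and positive ones in all 4 for AXIN2, CTNNB1, FZD9 and WNT10B (7.14% against 11.6%). Across the 12 arrays with and the 12 without TNFα, 5 members did not overlap and were lower (FZD4, FZD5, LGR5, ROR2 and WNT16; 0.834% of all genes), and 0 were higher (1.03%).

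**Figure D3:**
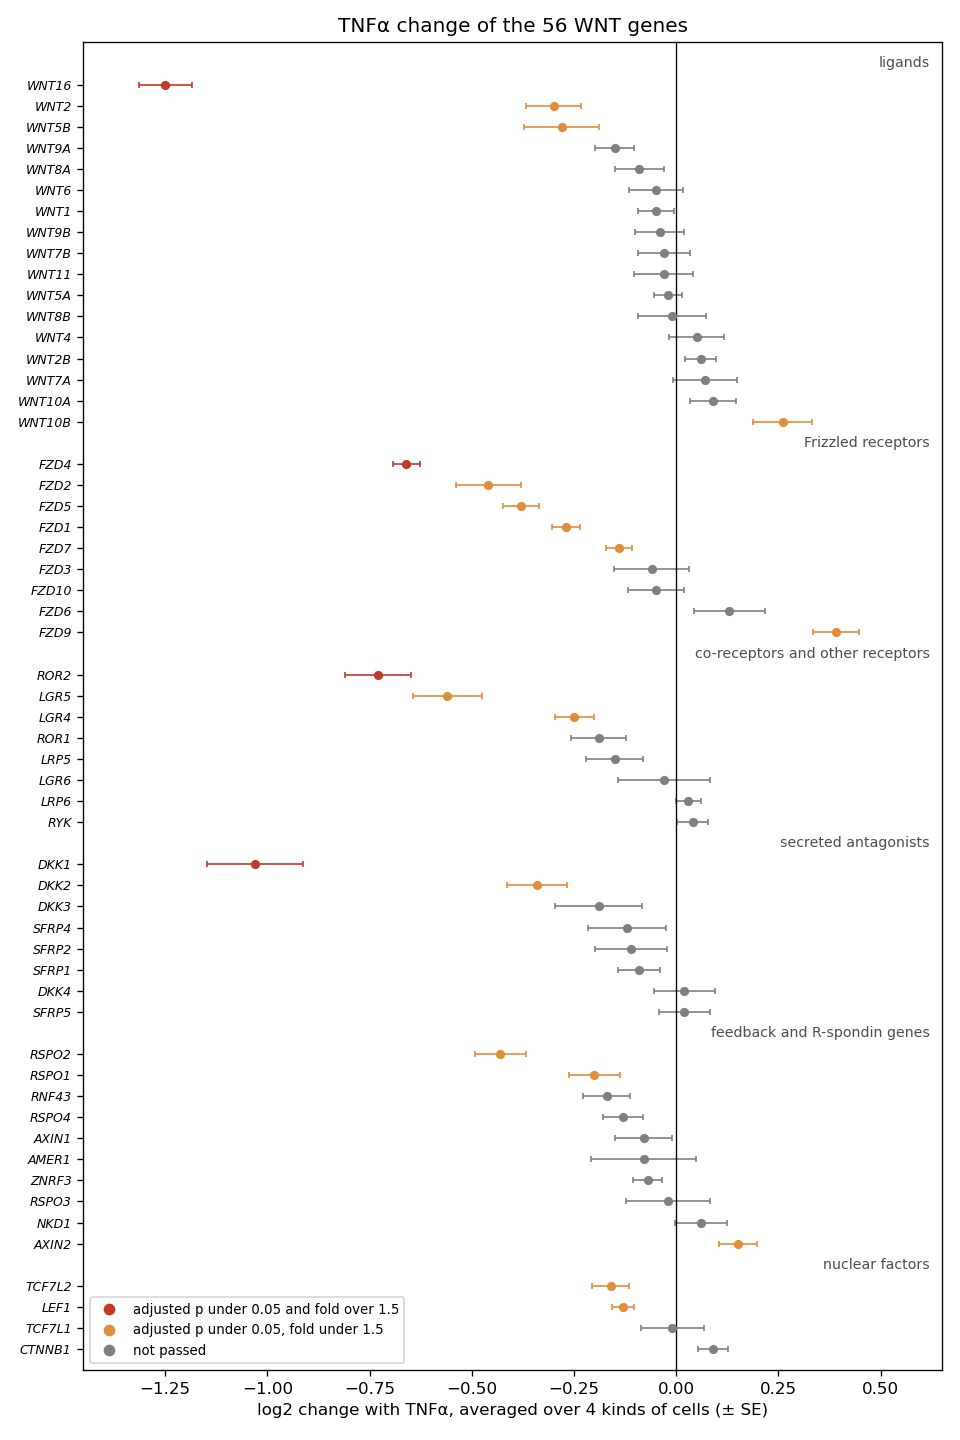
Change of the 56 members with TNFα, averaged over the 4 kinds of cells, on the log2 scale with its SE, grouped by role. Red points passed an adjusted p of 0.05 and a fold change of 1.5, orange points the adjusted p alone and grey points neither, and the red points are WNT16, FZD4, ROR2 and DKK1.

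By role, the Frizzled receptors were those most often past the adjusted p. Of 9, FZD1, FZD2, FZD4, FZD5 and FZD7 were lower by 0.14 to 0.66, and FZD9 was higher by 0.39 ± 0.0561 (SE; adjusted p = 6.24e-05). FZD9 read 5.32, 5.34 and 5.28 in empty vector cells and 5.68, 5.70 and 5.68 with TNFα, where the arrays did not overlap. FZD3, FZD6 and FZD10 did not pass, with changes of -0.06, 0.13 and -0.05.

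Of the 8 co-receptors and other receptors, LGR4 (-0.25) and LGR5 (-0.56) passed the adjusted p beside ROR2. Both LGR genes encode receptors for R-spondins. The co-receptors LRP5 (-0.15) and LRP6 (0.03), and RYK (0.04), ROR1 (-0.19) and LGR6 (-0.03), did not pass.

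Among the 17 ligands WNT2 (-0.30), WNT5B (-0.28) and WNT10B (0.26) passed the adjusted p beside WNT16. WNT2 was dim, with a mean of 3.42, and WNT5B lay at the limit, with an adjusted p that rounds to 0.05. In H133W cells with TNFα WNT10B read 7.53, 7.47 and 8.15, the last on H133W+TNFa replicate 3. The median of the ligands was -0.03. WNT5A, a ligand that signals largely without β-catenin, changed by -0.02 (adjusted p = 0.831) and was bright, at 9.64 to 10.09 on all arrays.

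Of the 8 secreted antagonists DKK2, which was dim, changed by -0.34 (adjusted p = 0.00352) and SFRP1 by -0.09 (adjusted p = 0.278). The R-spondins RSPO2 (-0.43 ± 0.0617, SE; adjusted p = 5.41e-05) and RSPO1 (-0.20; adjusted p = 0.0447) and the scaffold AXIN2, a standard reporter of β-catenin activity (0.15 ± 0.0464; adjusted p = 0.0417), passed the adjusted p alone. RSPO2 read 6.62, 6.41 and 6.91 in empty vector cells and 6.15, 6.22 and 6.14 with TNFα, all lower. In the rest of the feedback and R-spondin group, AXIN1, ZNRF3, RNF43 and NKD1 had changes of -0.08, -0.07, -0.17 and 0.06, none past the test. AMER1, RSPO3 and RSPO4 did not pass either. Of the 4 nuclear factors LEF1 changed by -0.13 (adjusted p = 0.00209) and TCF7L2 by -0.16 (adjusted p = 0.0276), while CTNNB1, at 0.09, and TCF7L1, at -0.01, did not pass (adjusted p = 0.136 and 0.952).

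The difference between kinds of cells was tested directly. For SIRT6, H133W and empty vector, the last against untransfected cells, 0 of 56 members passed the interaction with TNFα in limma, and 1, 8 and 1 were under an unadjusted p of 0.05. Over all genes 0%, 0.0101% and 0% were called, and 1.58%, 6.91% and 2.06% were under that unadjusted p. The members of lowest unadjusted p under H133W were FZD4, whose fall was larger by 0.29 ± 0.0927 than in empty vector cells, and WNT11, whose change was higher by 0.60 (adjusted p = 0.567 for both). WNT11 read 5.28, 5.09 and 5.76 in H133W cells with TNFα and 5.08, 5.66 and 5.25 in resting empty vector cells. The values 5.76 and 5.66 came from arrays of low weight, H133W+TNFa replicate 3 and empty vector replicate 2. For FZD2, FZD5 and LGR5 the interaction was -0.51, -0.34 and -0.35 (adjusted p = 0.567, 0.567 and 0.612). Hence a call in 1 kind of cell and not another is not shown to be a difference between them.

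The other question was whether SIRT6 or its mutant changed these genes by itself. For wild type SIRT6 against empty vector 0 of 56 members passed in resting cells (0.0506% of all genes called) and 0 with TNFα (0.101%), with 5 at an unadjusted p under 0.05 in each (5.07% and 6.73% of all genes) and 0 in the plain linear model. Changes ran from -0.28 to 0.57 in resting cells and from -0.37 to 0.32 with TNFα. The largest in resting cells was that of WNT16, 0.57 ± 0.13 (SE; adjusted p = 0.162), whose arrays read 7.24, 7.42 and 7.47 against 7.06, 6.80 and 6.57. With TNFα the difference in WNT16 was 0.25 (adjusted p = 0.801). The other WNT16 probe set averaged 5.69 with SIRT6 and 5.65 with empty vector in resting cells. The empty vector against untransfected cells likewise gave 0 calls without TNFα (0.0607%) and 0 with it (0.0303%), with 4 members at an unadjusted p under 0.05 in each (10.9% and 8.99% of all genes).

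H133W raised WNT2B, a ligand of the canonical pathway, and SFRP4, a secreted antagonist that binds WNT ligands. In resting cells these were the 2 of 56 members called against empty vector, and 0 were called lower (0.865% of all genes called, 0.804% upwards and 0.0607% downwards). With TNFα the same pair rose, and FZD4, LGR5 and AMER1 fell (1.72% of all genes called, 1.44% upwards and 0.283% downwards). In resting cells SFRP1, brighter than SFRP4, was lower with H133W by 0.44 (adjusted p = 0.0216). WNT9A was higher by 0.39 (adjusted p = 0.026), at a mean of 6.01 against 5.61, but it averaged 5.97 with wild type SIRT6. The changes of SFRP1 and WNT9A lay under the fold threshold, as did that of FZD4, which is described below.

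WNT2B read 8.22, 8.18 and 8.22 in H133W cells and 7.74, 7.45 and 7.56 in empty vector cells. With TNFα it read 8.53, 8.39 and 8.39 against 7.62, 7.53 and 7.62. It was higher by 0.62 ± 0.0748 (SE; 1.54-fold, adjusted p = 4.31e-05) and by 0.84 ± 0.0748 (1.79-fold, adjusted p = 8.56e-07). Its levels formed 4 separate ranges by kind of cell over both TNFα conditions: 7.11 to 7.32 in untransfected, 7.45 to 7.74 in empty vector, 7.81 to 7.96 in SIRT6 and 8.18 to 8.53 in H133W cells. The steps between neighbours did not all pass: SIRT6 against empty vector was 0.28 and 0.32 (adjusted p = 0.291 and 0.121), and empty vector against untransfected 0.34 and 0.40 (adjusted p = 0.0607 and 0.0556). H133W against SIRT6 was 0.34 and 0.52 (adjusted p = 0.0477 and 0.00146), which passed the test below the fold threshold. Without empty vector replicate 2 the resting rise was 0.56, under that threshold. The other 3 WNT2B probe sets were dim, and in resting H133W cells 1 of them had a change of -0.30 and another of 0.27 (adjusted p = 0.398 and 0.323).

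SFRP4 was dim, with a mean of 3.98. It read 4.61, 4.87 and 4.68 with H133W and 3.73, 4.10 and 3.41 with empty vector. With TNFα it read 4.65, 4.37 and 4.24 against 3.57, 3.72 and 3.83. All H133W arrays lay above all empty vector arrays, by 0.97 ± 0.19 (SE; adjusted p = 0.00591) and 0.72 ± 0.19 (adjusted p = 0.0318) on average. The differences from SIRT6 cells, 0.62 and 0.52, did not pass (adjusted p = 0.235 and 0.184), and neither did the other SFRP4 probe set, with 0.19 and 0.34 (adjusted p = 0.553 and 0.146). The call with TNFα was lost without any empty vector+TNFa array or without H133W+TNFa replicate 1 (adjusted p from 0.0607 to 0.123).

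**Figure D4:**
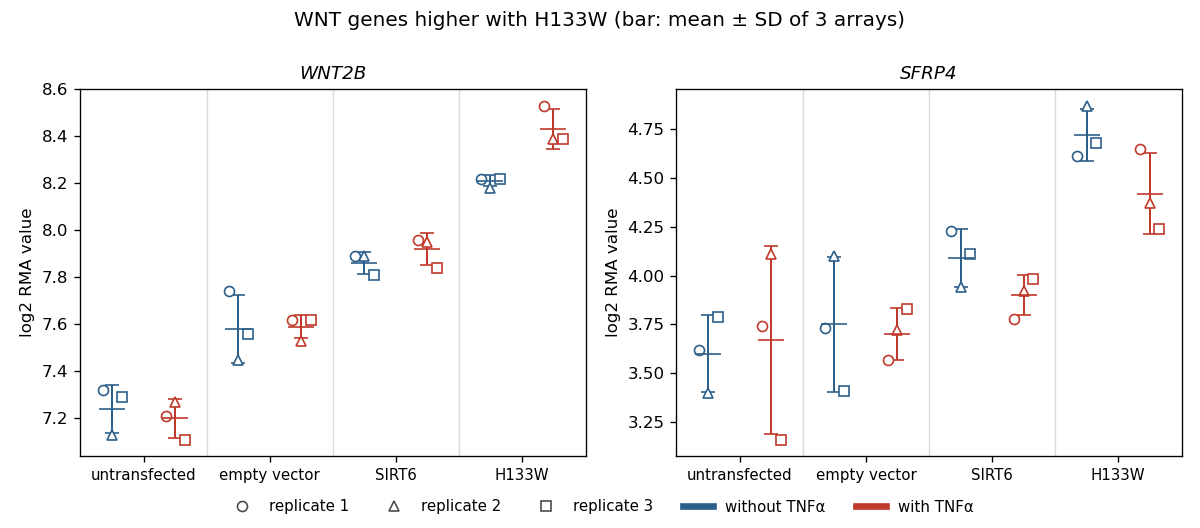
Log2 RMA values of WNT2B and SFRP4 on each array, by kind of cell, without (blue) and with (red) TNFα, with the mean ± SD of 3 arrays. WNT2B steps up from untransfected (7.11 to 7.32) to H133W cells (8.18 to 8.53), and SFRP4 is highest in H133W cells.

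Taking the 6 arrays of H133W cells against the 18 others, WNT2B and SFRP4 lay above all of them (2 of 56 members, against 1.5% of all genes). The gap was narrow for SFRP4, whose lowest H133W array read 4.24 and highest SIRT6 array 4.23, against 8.18 and 7.96 for WNT2B. WNT5A lay below all the others (1 of 56, against 0.47%), at 9.64 to 9.76, where the lowest SIRT6 array read 9.78. The difference in WNT5A was small: -0.20 and -0.18 against empty vector (adjusted p = 0.13 and 0.133) and -0.32 against SIRT6 with TNFα (adjusted p = 0.0278).

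Of the members that fell with H133W under TNFα, FZD4 was lower by 0.64 ± 0.0656 (SE; adjusted p = 4.55e-06), and by 0.58 without H133W+TNFa replicate 3, under the fold threshold, so that its call was lost. It was also lower by 0.50 than in SIRT6 cells with TNFα (adjusted p = 0.000601), and in resting cells FZD4 was lower by 0.36 with H133W than with empty vector (adjusted p = 0.00354), both under the fold threshold. AMER1, a scaffold of the complex that degrades β-catenin, read 7.41, 7.26 and 5.79 against 7.80, 7.63 and 7.97 (a change of -0.98 ± 0.255; adjusted p = 0.0296). The value of 5.79 was that of H133W+TNFa replicate 3, and without it the change was -0.47 (adjusted p = 0.0308). LGR5 changed by -0.63 ± 0.17 (adjusted p = 0.0348) and by -0.29 without that array (adjusted p = 0.0446). Thus FZD4, AMER1 and LGR5 all lost their call against empty vector without it, and those of AMER1 and LGR5 were also lost without any single empty vector+TNFa array (adjusted p from 0.0567 to 0.117). Without the 3 arrays of low weight SFRP4 was called higher and RSPO3 lower against empty vector in resting cells (1.05% of all genes called). With TNFα WNT2B and SFRP4 were called higher and RSPO3 lower (1.1%). RSPO3 read 5.77, 5.74 and 5.33 with H133W against 6.41, 6.17 and 6.07 at rest. With TNFα it read 5.78, 5.16 and 6.34 against 6.15, 5.99 and 6.17, where 6.34 was H133W+TNFa replicate 3.

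Set directly against wild type SIRT6, H133W gave 0 calls in resting cells (0.167% of all genes) and 0 with TNFα (0.415%), with 13 and 12 members at an unadjusted p under 0.05 (9.12% and 15.7% of all genes). With no fold threshold WNT2B passed in resting cells (1 of 56, against 0.622% of all genes), and WNT2B, FZD4, FZD1 and WNT5A with TNFα (4 of 56, against 1.55%). FZD1 read 9.75, 9.78 and 9.58 in H133W and 10.17, 9.92 and 10.09 in SIRT6 cells with TNFα, a change of -0.36 (adjusted p = 0.0107).

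From a list of 73 other genes of the pathway 71 were measured. With TNFα 1 of them was called higher and 2 lower on average over the kinds of cells (1.22% of all genes called, 0.425% downwards). Without the 3 arrays of low weight 0 were called higher and 3 lower (1.23%, 0.46% downwards), with BMP4 added and NKD2 lost. Those called in at least 1 comparison are named here. TNFRSF19, a receptor of the TNF superfamily and a β-catenin target, fell in each kind of cell, by 0.81 to 1.07 (adjusted p from 4.17e-06 to 0.000151). In empty vector cells it read 8.64, 8.43 and 8.59 without and 7.71, 7.70 and 7.62 with TNFα, which do not overlap. SOSTDC1, a secreted antagonist of LRP5 and LRP6 and of BMPs, fell by 0.79 ± 0.0935 on average (SE; adjusted p = 5.06e-06). In single kinds of cells its calls each depended on several single arrays.

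NKD2, an inhibitor that binds Dishevelled, rose by 0.60 ± 0.0547 on average (adjusted p = 1.33e-07), and by 0.56 to 0.58, under the fold threshold, without H133W+TNFa replicate 3, SIRT6 replicate 3 or untransfected replicate 2. With SIRT6 it read 6.79, 7.03 and 6.66 without and 7.59, 7.5 and 7.55 with TNFα. It was thus higher with TNFα on all 3 arrays.

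The other calls with TNFα lay in H133W cells, or there and in SIRT6 cells. BMP4, a growth factor, fell in both, by 0.77 and 0.65 (adjusted p = 0.000827 and 0.00453), with 0.58 in SIRT6 cells without SIRT6+TNFa replicate 3. BMP4 was also lower with TNFα, without overlap but not called, in the other kinds of cells. In untransfected cells it read 6.11, 5.62 and 5.92 without and 5.49, 5.58 and 5.41 with TNFα. In empty vector cells its mean went from 5.89 to 5.37. In H133W cells MYC and ID2 fell by 0.73 and 0.60 (adjusted p = 0.00184 and 0.000175), and ID2 by 0.53 without H133W replicate 1 or H133W+TNFa replicate 2. DAAM1, a formin of planar polarity, and BCL9L, a co-activator of β-catenin, changed by -0.66 and 0.78 in H133W cells. Their calls were lost without H133W+TNFa replicate 3, at -0.37 and 0.41, and without any single H133W array. BCL9L was also higher with TNFα, without overlap, in untransfected (mean 5.21 to 5.77), empty vector (5.49 to 5.98) and SIRT6 cells (5.55 to 5.84). Without the 3 arrays of low weight it was called in untransfected and empty vector cells (1.4% and 1.26% of all genes called). In that fit BCL9L, DAAM1, NKD2 and SOSTDC1 lost their calls in H133W cells (1.27%).

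Against empty vector, CELSR3, an atypical cadherin of planar polarity, was higher with H133W. At rest its mean was 5.29 in untransfected, 5.89 in empty vector, 6.16 in SIRT6 and 6.62 in H133W cells. With TNFα the means were 5.65, 5.90, 6.09 and 6.77. The resting untransfected and empty vector arrays did not overlap, though that step was not called. With H133W it read 6.61, 6.48 and 6.77 against 5.73, 5.85 and 6.07 with empty vector at rest. With TNFα it read 6.59, 6.71 and 7.02 against 5.94, 5.68 and 6.08. The groups did not overlap, and the rise was 0.73 ± 0.133 and 0.87 ± 0.133 (SE; adjusted p = 0.00309 and 0.00046). With TNFα MYC was lower by 0.69 and SOSTDC1 by 0.72 (adjusted p = 0.00248 and 0.0287), and against SIRT6 CELSR3 and PRICKLE2 were higher by 0.68 and 0.62 (adjusted p = 0.0132 and 0.00305). The SOSTDC1 call was lost without H133W+TNFa replicate 3, empty vector+TNFa replicate 1 or empty vector+TNFa replicate 3 (adjusted p from 0.0715 to 0.134). Without the 3 arrays of low weight SOSTDC1 was called lower against empty vector at rest (1.05% of all genes called). With TNFα it was not called in that fit, and PRICKLE2 was called higher (1.1%). Against SIRT6, CELSR3 lost its call without any SIRT6+TNFa array or H133W+TNFa replicate 3 (adjusted p from 0.0538 to 0.0662), and PRICKLE2 without H133W+TNFa replicate 1, at 0.56.

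**Figure D5:**
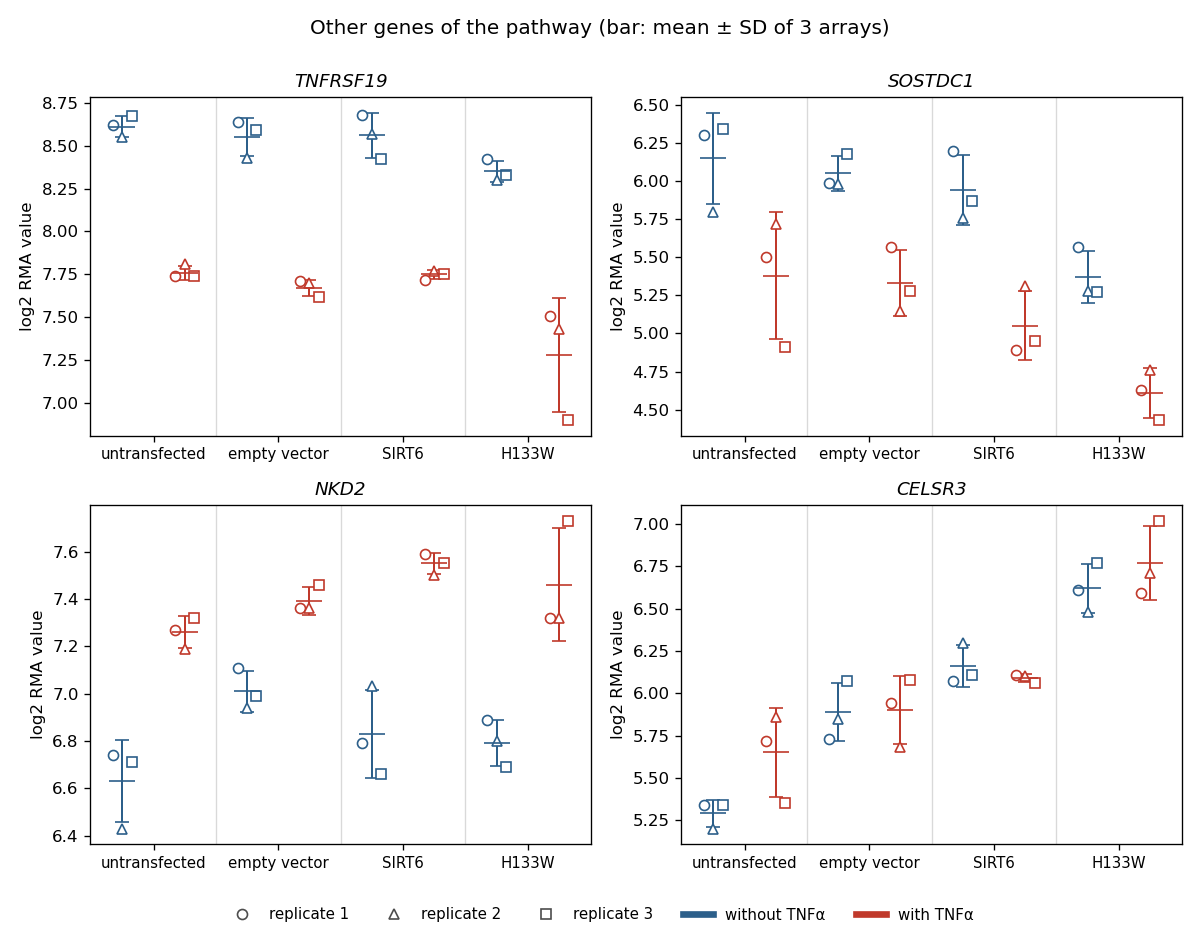
Log2 RMA values of TNFRSF19, SOSTDC1, NKD2 and CELSR3 on each array, by kind of cell, without (blue) and with (red) TNFα, with the mean ± SD of 3 arrays. TNFRSF19 and SOSTDC1 are lower and NKD2 is higher with TNFα, and CELSR3 is highest in H133W cells.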

How the data were processed

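Gene expression was measured in HEK293 cells in 8 conditions of 3 biological replicates on 24 Affymetrix arrays. The deposited values are log2 signals of 54675 probe sets, from 1.52 to 13.75, which the authors had made with RMA in ArrayStudio, and they were not normalised again. No genome build applies to them, and the number of arrays limits the precision. The array columns were matched to samples by sample identifier, and the sample titles gave the condition and replicate. The platform's annotation, with symbols brought up to date through RefSeq, gave 41097 probe sets with a single gene, 1801 with several and 11777 unnamed.

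A linear model with 8 condition means was fitted to all 24 arrays in R 4.3.3 with limma 3.58.1 (16 residual and 3.47 prior degrees of freedom). Tests were two-sided, with Benjamini-Hochberg adjustment over the 54675 probe sets in each of 13 comparisons and 3 interactions. A gene was called where its fold change exceeded 1.5 with an adjusted p below 0.05, the thresholds of the study's methods, and read by its probe set of highest mean. The scripts were tested on simulated data. Background shares are over 19775 genes. Comparisons with the same control arrays are not independent.

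The members, the list of 73 other pathway genes and the markers were chosen with earlier results of these data known. Named are the members called in any comparison, the members with the largest average TNFα change in roles with fewer than 2 called, and the other pathway genes called; further members were named to account for their role, after their values were seen. Replicate numbers were checked for pairing: deviations of arrays with the same number correlated at -0.383 to 0.28, 8 of 36 above 0.1, so that the numbers were not taken as pairs. Alternatives are given in the closing section.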

Additional observations from a re-analysis of the deposited data

How the results depend on the processing

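The 4 members called lower with TNFα on average stayed 4 under the other alternatives, with these exceptions. There were 3 without dim probe sets, which leaves out DKK1, and 5 without H133W+TNFa replicate 1 or replicate 2. The fit with no fold threshold was the last exception. With no fold threshold 20 members were called for TNFα on average (14.1% of all genes). For H133W against SIRT6 there were 1 at rest and 4 with TNFα (0.622% and 1.55% of all genes). There were 5 for TNFα in SIRT6 cells and 5 for H133W against empty vector at rest. On the arrays of the comparison alone 1 member was called for TNFα in untransfected cells, 2 in H133W cells, and 1 for H133W against empty vector at rest and 1 with TNFα. The plain linear model called 1 for TNFα in untransfected cells and 2 for H133W against empty vector with TNFα. Without the 3 arrays of lowest weight 3 were called for TNFα in H133W cells (1.27% of all genes). In that fit 3 were called for H133W against empty vector with TNFα (1.1% of all genes). Leaving out dim probe sets left 1 for H133W against empty vector at rest, and counting any probe set of a gene gave 1, WNT6, for SIRT6 against empty vector with TNFα. No share of all genes under the same rule is given for the other counts in this section. Those counts show only how the calls of members moved, not whether members were called more often than other genes.

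Leaving out each array in turn, the count ranged from 2 to 4 for TNFα in empty vector, 1 to 2 in untransfected, 3 to 3 in SIRT6 and 3 to 7 in H133W cells, and 4 to 5 on average. It ranged from 1 to 2 for H133W against empty vector at rest (1 without empty vector replicate 2), 2 to 7 with TNFα (2 also without any empty vector+TNFa array), and 0 to 3 for H133W against SIRT6 with TNFα, and was 0 to 0 in the other comparisons and the interactions. Without H133W+TNFa replicate 3 the counts were 3 for TNFα in H133W cells and 2 for H133W against empty vector with TNFα; the 3 for H133W against SIRT6 came without H133W+TNFa replicate 1. The counts of 2 in empty vector cells came without empty vector+TNFa replicate 1 or 3, and those of 1 in untransfected cells without untransfected replicate 3 or untransfected+TNFa replicate 3. Another probe set turned the direction for FZD5 with TNFα in H133W cells (0.14) and for WNT2B in resting H133W cells (-0.30). Of the 32 members with several probe sets, 20 had the same sign in all of them for the average TNFα change and 12 did not. The cause was not tested.

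With the replicate number as a block, ROR2 in untransfected cells lost its call (adjusted p = 0.0579) and no count of members moved by over 1.5 times; 27 of 72 arrays correlated best with their own number.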

Other observations

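Some probe sets that were not used for a gene gave calls that the brighter one did not. FZD3, a Frizzled receptor, is read by 4 probe sets. With TNFα, 2 of them were lower in H133W than in empty vector cells, by 0.72 and 0.71 (adjusted p = 0.00755 and 0.0294), against -0.53 for the brightest (adjusted p = 0.104). On these 2 probe sets H133W+TNFa replicate 3 read 7.49 and 6.58, against 8.34 and 8.29 and against 7.64 and 7.37 for its replicates.

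WNT6, a ligand, is read by 4 dim probe sets. On 1 of them it read 4.46, 4.39 and 4.33 in SIRT6 and 4.29, 4.27 and 4.79 in H133W cells with TNFα, against 3.75, 3.75 and 3.67 in empty vector cells. The groups did not overlap, and the differences were 0.67 and 0.73. In untransfected cells with TNFα it read 4.20, 4.16 and 4.14, also above empty vector cells. The brightest WNT6 probe set changed by 0.05 and 0.01 in the same comparisons.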
